A study of Macaca mulatta with 24 samples.

Results

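Ileum collected 12 days after total-body irradiation (TBI) was compared with ileum of unirradiated rhesus macaques. The comparison takes the 4 arrays of day 12, 2 after 6.7-Gy TBI and 2 after 7.4-Gy TBI, pooled against the 4 arrays of unirradiated animals, so that 8 of the 24 arrays of the series enter it. They were chosen by their titles alone. A gene was described as separated when its 4 day 12 values all lay above, or all lay below, its 4 unirradiated values, and as called when limma gave an adjusted p under 0.05 together with a fold change of at least 2. A call carries a p, a separation is a description only. Total RNA of whole gut tissue from ileum segments of about 3 cm was hybridized to Agilent single-color arrays without pooling, with 1 array for each animal, in young adult male animals that received a single uniform cobalt-60 exposure. The unirradiated animals were sham-irradiated; their ileum carries the label day 4 and served for every day. The irradiated groups of day 12 have 2 animals each, and the 16 other irradiated arrays (days 4 and 7) entered the fit to estimate the spread. A protocol text shared by all samples names 21 days as the last time, whereas title, day field and methods give 12 days, and day 12 was used.

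The ileal mucosa holds a single layer of epithelium, renewed from stem cells in the crypts, above a lamina propria that is densely populated by T cells, plasma cells, macrophages and mast cells, with B cells gathered in follicles. Dividing crypt cells and lymphocytes are among the cells that ionizing radiation kills most readily, and DNA damage switches on a program of genes through the transcription factor p53. Lymphocytes reach the small intestine by receptors such as the chemokine receptor CCR9 and the integrin chain ITGA4, which bind ligands of the gut epithelium and vessels. In whole tissue, fewer cells of a type and less RNA in each cell cannot be told apart.

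All values below are log2 intensities relative to the 75th percentile of their array, and a change is the day 12 mean minus the unirradiated mean on that scale, with the standard error (SE) of the limma fit. The arrays of the comparison had 79.3 to 88.1% of probes well above background and correlated with each other at 0.971 to 0.987 across probes. The bile acid binding protein FABP6 of ileal enterocytes had 8.78, 8.75, 8.75 and 8.66 in unirradiated ileum and 9.19, 8.93, 8.74 and 8.33 on day 12 (change 0.06, SE 0.23, adjusted p = 0.97). The bile acid transporter SLC10A2, the hormone FGF19 and the brush border protein VIL1 were also above background on all 8 arrays, FABP2 was so on 1 array of each group, and APOA4 has no tested probe. All unirradiated arrays lay at position 1 of their slide and all day 12 arrays at position 4, so that position and group cannot be told apart in this comparison. Day 12 arrays after 6.7 Gy shared slides 3 and 4 with unirradiated replicates 3 and 4, while both arrays after 7.4 Gy lay on slides without an unirradiated array that were scanned on another day, so that dose and scan day cannot be told apart on day 12. Of the unirradiated animals, replicate 1 stood apart by low smooth muscle genes (list median -1.80 against 0.46 to 0.64 in replicates 2 to 4) and replicate 4 by high B cell markers (1.24 against -0.72 to -0.09).

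Few transcripts passed the test on day 12. Of 36108 tested probes, 27 rose (0.0748%) and 61 fell (0.169%), and 24 of the 27 and 59 of the 61 were also separated. Separation alone held for 1109 probes that were higher (3.07%) and 1085 that were lower (3%), of which 98 and 201 differed by at least 2-fold. When the brightest tested probe stood for its gene, of 14192 genes, 12 rose (0.0846%) and 31 fell (0.218%), while 466 were separated upward (3.28%) and 505 downward (3.56%). The median change over all genes was 0.02. The number of called probes depended on single animals. Without replicate 1 of 7.4 Gy no probe was called by limma (smallest adjusted p = 0.053, 543 probes at an unadjusted p under 0.05 with 2-fold against 500 with all arrays), and without any other of the 8 arrays 34 to 87 were called. It was 43 without unirradiated replicate 1, 34 without unirradiated replicate 4, and 45 and 46 without the first and the second array of 6.7 Gy.

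The 30 genes that were called and separated downward included single receptors that guide lymphocytes to the gut or signal in them. Of those in this paragraph, ITGA4 and P2RY10 were named after their values were seen. The list of lymphoid follicle and homing genes had a median change of -0.10 over 11 genes. CCR9, the receptor for the chemokine that the small intestinal epithelium makes, had -0.93, -1.80, -1.63 and -0.83 in unirradiated ileum. On day 12 it had -3.05 and -3.51 after 6.7 Gy and -3.44 and -3.30 after 7.4 Gy. It fell by 2.03 (SE 0.26, 4.08-fold, adjusted p = 0.0080), the smallest adjusted p of all probes, and its groups did not overlap. ITGA4, the alpha 4 chain of the integrin that binds the mucosal vessel ligand MADCAM1, had -1.39, -1.55, -1.39 and -0.85 in unirradiated ileum. On day 12 its values were -2.65, -2.76, -2.79 and -2.39, a fall of 1.35 (SE 0.22, adjusted p = 0.0089), and its other tested probe fell by 1.25 (SE 0.19, adjusted p = 0.0089). The groups did not overlap for either probe. P2RY10, a receptor of lymphocytes for lysophospholipids, fell by 1.40 (SE 0.26, adjusted p = 0.019).

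SLAMF6 and SLAMF7 were the called members of the SLAM family, by which lymphocytes sense each other; SLAMF1 (-0.05), SLAMF8 (-0.14) and SLAMF9 (-1.31) did not pass the test. SLAMF6 had -4.44, -4.59, -4.87 and -4.69 in unirradiated ileum and -7.95, -8.45, -6.89 and -5.35 on day 12, where 1 of 4 arrays was above background (change -2.51, SE 0.52, adjusted p = 0.032). SLAMF6 entered the test only through the unirradiated group (adjusted p = 0.047 without the filter on dim probes), and the size of its change is uncertain. Its other probe gave -1.09 (adjusted p = 0.34), not past the test. SLAMF7, which plasma cells and cytotoxic cells carry, had 1.097, 0.85, 0.98 and 1.93 in unirradiated ileum and -0.12, 0.50, -0.12 and 0.44 on day 12, a fall of 1.04 (SE 0.23, adjusted p = 0.045). CCR7, which directs naive lymphocytes and dendritic cells into lymphoid tissue, was called (change -2.06, SE 0.42, adjusted p = 0.032) although its groups overlapped and its other probe gave -0.68 (adjusted p = 0.77). Its 4 unirradiated values were -1.36, -2.48, -1.54 and -1.56, and the second animal of 7.4 Gy, at -2.27, stood above the lowest of them, while the other 3 lay between -4.70 and -4.06.

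The next genes were named after their values were seen, without a list of their kind, and several rest on 1 of their probes. BTK, the kinase behind the B cell receptor, fell by 1.23 (SE 0.24, adjusted p = 0.026), and unirradiated replicate 4 was the highest of all arrays at -1.38 against -2.72 to -2.50 in the other 3. IKZF3, a transcription factor of B and plasma cells and of other lymphocytes, fell by 1.27 (SE 0.20, adjusted p = 0.0089), from a range of -2.30 to -1.75 to a range of -3.41 to -3.07, and its other probe by 1.45 (adjusted p = 0.017). KLHL6, needed for germinal centre B cells, fell by 1.21 (SE 0.25, adjusted p = 0.030) on its brightest probe, while its other probes gave -1.196 (adjusted p = 0.069) and 0.37 (adjusted p = 0.65) and so disagree in sign. TBC1D10C, an inhibitor of calcineurin and Ras in lymphocytes, had 0.71 to 1.08 in unirradiated ileum and -0.22 to -0.10 on day 12 (change -1.03, SE 0.18, adjusted p = 0.014). Its other probe, above background on all 8 arrays, gave 0.15 (adjusted p = 0.87). RIPOR2, an inhibitor of the GTPase RHOA in T cells and neutrophils, fell by 1.64 (SE 0.27, adjusted p = 0.0089), and its other probe by 1.35. Also called were PIK3R6, a regulatory subunit of PI3-kinase gamma (-1.25), and the regulators of G-protein signalling RGS6 (-1.04) and RGS3 (-1.0005), with adjusted p of 0.035, 0.035 and 0.037. The other probes of PIK3R6 (0.27, adjusted p = 0.93) and RGS6 (-0.56, adjusted p = 0.79) did not pass the test. RGS3 was above background on 2 of the 4 day 12 arrays. PIK3R6 was called in 6 and RGS3 in 7 of 22 settings, and RGS6 in 8 of 23. Their smallest changes over the settings were -0.49, -0.19 and -0.80.

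Further single falls follow, again not drawn from a list; the macrophage and neutrophil marker lists had no called member. TLR10, a Toll-like receptor of B cells, had -3.64, -3.51, -3.73 and -3.16 in unirradiated ileum and -4.81, -5.85, -6.24 and -4.92 on day 12 (change -1.95, SE 0.35, adjusted p = 0.017). CARD9, the adaptor through which fungal sensors signal in myeloid cells, fell by 1.33 (SE 0.21, adjusted p = 0.0089), from -1.45 to -0.88 down to -2.82 to -2.16, on its brightest probe. Its other probe, above background on all 8 arrays, gave -0.19 (adjusted p = 0.86). NOD2, a sensor of bacterial cell wall that is known in Paneth cells and monocytes, fell by 1.08 on its brightest probe (SE 0.24, adjusted p = 0.049), with -4.91, -4.79, -4.91 and -4.75 on day 12. Its other probes gave -0.04 and 0.60 (adjusted p = 0.98 and 0.70), and the mean of the 3 probes gave -0.17, so that the call rests on 1 probe. On these brightest probes the 4 day 12 values of all 3 genes lay below the unirradiated values. PRAM1, an adaptor of myeloid cells, fell by 1.60 (SE 0.33, adjusted p = 0.030). MYO1F, a myosin of neutrophils and other leukocytes, fell by 1.46 (SE 0.28, adjusted p = 0.021) and was above background on 2 of 4 day 12 arrays. Over the settings tried the smallest changes of MYO1F and TLR10 were -0.42 and -0.82. UNC13D, needed for the release of cytotoxic granules, fell by 1.13, and S100A4, a calcium-binding protein of motile cells, fell by 1.21 (adjusted p = 0.031 and 0.035). MSN, which links the membrane of leukocytes to actin, fell by 1.08 (adjusted p = 0.0092). BCL2A1, an inhibitor of apoptosis in blood cells, fell by 1.76 (SE 0.30, adjusted p = 0.010), and its other probe by 1.92.

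FCER1A, the chain of the high-affinity IgE receptor that binds the antibody on mast cells, basophils and dendritic cells, had unirradiated values with an SD of 0.09. These were -0.96, -1.15, -1.07 and -1.16, against -3.51, -4.42, -4.09 and -3.24 on day 12. It fell by 2.73 (SE 0.49, 6.62-fold, adjusted p = 0.016). The mast cell and eosinophil list did not show this: of its 7 tested members, which include the other IgE receptor chain MS4A2 (-0.23), the tryptase TPSB2 (0.26) and the protease CPA3 (-0.62), none was called or separated, and the list median was -0.23.

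Hemoglobin transcripts were far lower on day 12 than in unirradiated ileum. HBB, the beta chain, had 0.80, 1.38, 2.51 and 2.77 in unirradiated ileum, -2.50 and -3.02 after 6.7 Gy, and -2.58 and 0.20 after 7.4 Gy. It fell by 3.84 (SE 0.62, 14.3-fold, adjusted p = 0.0089), and its other probe was lower as well (-4.32, SE 0.85, adjusted p = 0.026). HBA, an alpha chain, had 0.37, 0.75, 2.07 and 2.37 in unirradiated ileum and -0.89, -1.07, -0.90 and 0.11 on day 12, a fall of 2.08 (SE 0.34, adjusted p = 0.0089). For both genes unirradiated replicates 3 and 4 were higher than replicates 1 and 2, and the second animal of 7.4 Gy was the highest of day 12. The probe named HBA1, a near-identical copy, had means of 7.06 and 7.05 (adjusted p = 0.99), and which alpha globin copies these probes detect is uncertain. Of the 9 tested erythroid genes no other was called; AHSP (-0.01), GATA1 (0.00) and KLF1 (-0.21), which mark red cell precursors, did not pass the test, and the list median was -0.01. SERPINA2, a relative of the protease inhibitor alpha 1-antitrypsin, had 4 unirradiated values in the same order as those of HBB, -0.28, 0.15, 1.37 and 1.44, and -1.34, -1.54, -1.48 and -0.59 on day 12 (change -1.91, SE 0.28, adjusted p = 0.0089). What blood in the vessels contributed to these values was not tested.

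The 3 largest falls outside the groups above had low signals. LOC718975, which the array describes as resembling an EGF-module-containing mucin-like receptor, was well above background on 4 unirradiated and 0 day 12 arrays, and was at least 6.83-fold lower on day 12 (adjusted p = 0.049). THRSP, a regulator of fat synthesis, was also above background on 4 unirradiated and 0 day 12 arrays and was at least 5.19-fold lower (adjusted p = 0.013). These limits set each day 12 array to its lowest signal well above background and hold for the main processing only. Over the settings tried the change ranged from -4.39 to -1.27 for LOC718975 and from -3.52 to -0.77 for THRSP. Both probes entered the test only through the unirradiated group, where they are high; without the filter on dim probes their adjusted p were 0.071 for LOC718975, no longer called, and 0.020 for THRSP. ACRC, described as acidic repeat containing, had -2.38, -2.53, -3.60 and -4.42 in unirradiated ileum and -4.67, -5.89, -6.61 and -6.00 on day 12 (change -2.56, SE 0.52, adjusted p = 0.030), without overlap.

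**Figure D1:**
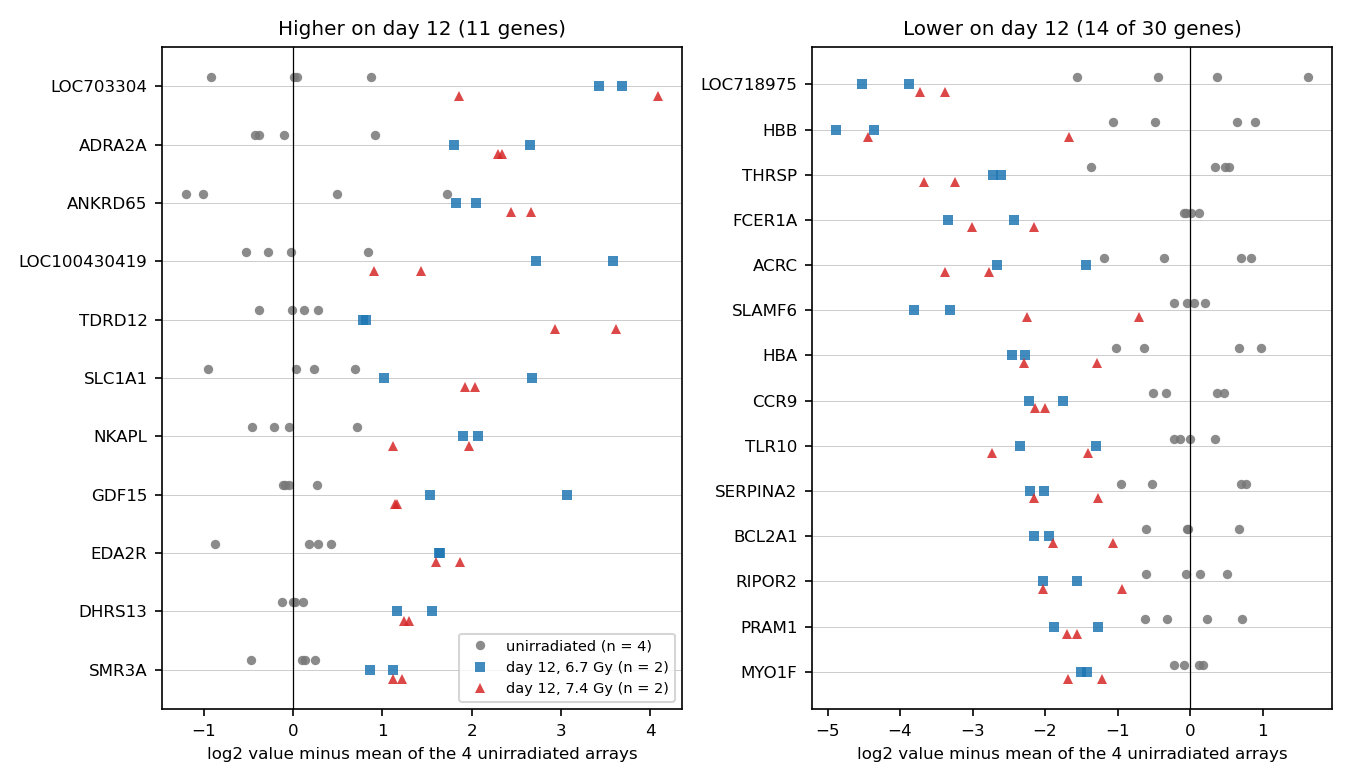
Each point is 1 array; the horizontal axis gives its log2 value minus the mean of the 4 unirradiated arrays, for the 11 genes that were called and separated upward (left) and 14 of the 30 that were called and separated downward, taken from the largest falls (right). No day 12 point (squares for 6.7 Gy, triangles for 7.4 Gy) reaches the range of the unirradiated points (circles) of its gene. Among the falls, the second 7.4-Gy animal is the closest of the 4 to that range for HBB, HBA, SERPINA2, FCER1A, SLAMF6, BCL2A1, RIPOR2 and MYO1F. Among the rises it is the closest for LOC703304, LOC100430419 and NKAPL.

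Marker lists place these genes beside the cell types of the mucosa. For comparison with the list counts, 0.0846% of all genes were called upward and 0.218% downward. Separation held for 3.28% upward and 3.56% downward. B cell markers had a median change of -1.20 over 10 tested genes, against 0.02 for all genes, with 8 lower and 2 higher. None was called; 3 were separated downward, namely BANK1 (-2.33, adjusted p = 0.052), VPREB3 (-2.34, adjusted p = 0.056) and CD79A (-1.33, adjusted p = 0.33). BANK1, a scaffold of B cell receptor signalling, had -3.66, -3.93, -2.997 and -0.99 in unirradiated ileum and -5.08, -5.70, -5.52 and -4.61 on day 12. CD79A, the signalling chain of the B cell receptor, had -4.15, -4.14, -3.18 and -1.95, and then -4.92, -4.64, -4.94 and -4.27. MS4A1, which encodes CD20, ranged from -6.29 to -3.48 in unirradiated ileum and from -7.66 to -6.27 on day 12, where 1 of 4 arrays was above background (change -1.93, SE 0.98, adjusted p = 0.56). It too entered the test only through the unirradiated group. In each of these genes unirradiated replicate 4 was the highest of the 8 arrays, and without it the list median was -0.78. FCRLA, an Fc receptor-like protein of B cells, had a higher value (0.54) that did not pass the test. The median was -0.02 when only probes above background on all 24 arrays were kept, a filter that removes genes dim on any array, and -0.50 after normexp background correction.

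Plasma cell markers had a median of -1.04 over 9 tested genes, 8 of them lower. SLAMF7 was the member called, and TNFRSF17, the receptor that keeps plasma cells alive, was separated (-1.64, adjusted p = 0.32). JCHAIN, which joins the IgA that plasma cells export to the lumen, had a change of -0.92 (SE 0.39, adjusted p = 0.45), DERL3 -1.42 and MZB1 -1.35, both short of the test. The list stood at -1.33, -0.92, -1.18 and -0.76 on the 4 day 12 arrays, below all 4 unirradiated arrays (-0.47 to 0.79). T and cytotoxic lymphocyte markers had a median of -0.28 over 16 genes, with none called. CD3E, a chain of the T cell receptor complex, had 1.01, 0.53, 0.76 and 0.22 and then -0.02, -0.10, 0.22 and 0.28 (change -0.53, SE 0.23, adjusted p = 0.47), with the lowest unirradiated animal inside the day 12 range. The adhesion receptor CD2 (-0.65, adjusted p = 0.18) and the T cell receptor kinase ZAP70 (-0.28, adjusted p = 0.76) were separated downward. The granule genes GZMA (0.00), GZMB (-0.18), PRF1 (0.16) and NKG7 (0.11) lay near 0, none past the test.

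**Figure D2:**
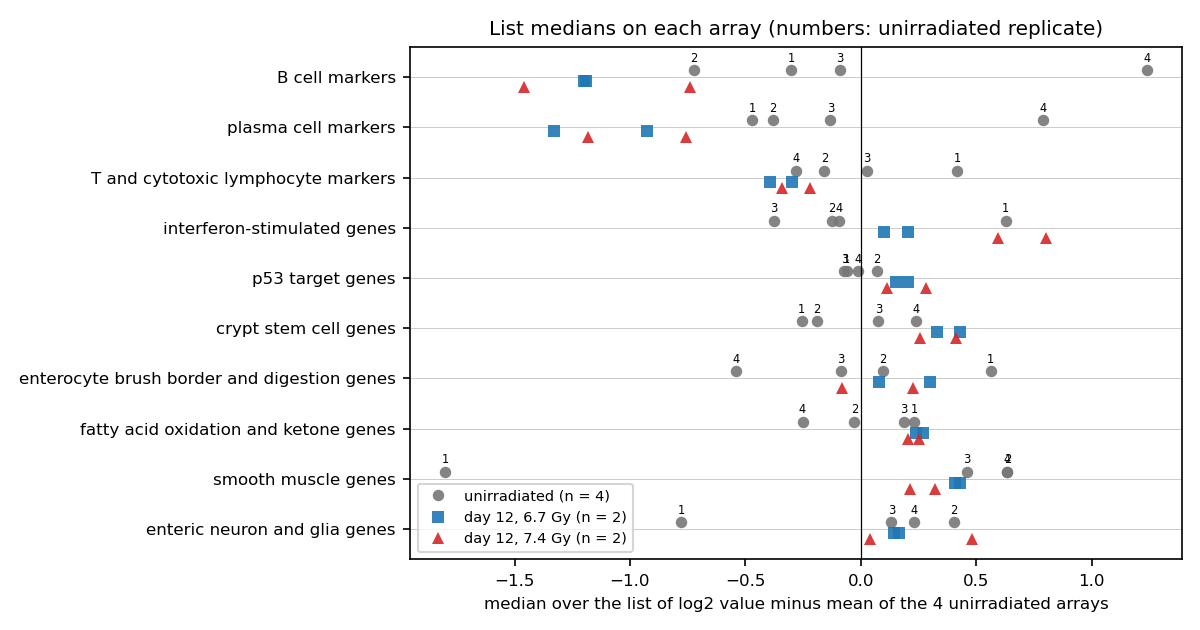
The horizontal axis gives, for each array, the median over a gene list of the log2 value minus the mean of the 4 unirradiated arrays; circles are unirradiated animals with their replicate number, squares 6.7 Gy and triangles 7.4 Gy on day 12. B cell and plasma cell markers were lower on all 4 day 12 arrays than on any unirradiated array. Crypt stem cell genes and p53 targets were higher on all 4. The gap was narrow for B cell markers (-0.738 against -0.724) and crypt stem cell genes (0.256 against 0.24). Unirradiated replicate 4 was the highest for B cell markers at 1.24, and replicate 1 was the lowest for smooth muscle genes at -1.80.

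Of the 41 lists, 6 had array medians that did not overlap between the groups. B cell, plasma cell and Paneth cell genes were lower on day 12. Targets of p53, crypt stem cell genes and enteroendocrine and tuft cell genes were higher. Some margins were narrow. The nearest day 12 and unirradiated values were -0.738 and -0.724 for B cell markers and -0.101 and -0.0758 for Paneth cell genes. They were 0.256 and 0.24 for crypt stem cell genes and 0.00631 and -0.0064 for enteroendocrine and tuft cell genes. Whether 6 lists are more than expected was not tested. The other leukocyte lists were mixed. Lymphoid follicle and homing genes had a median of -0.10 over 11 genes; besides CCR7, the lymphotoxin LTB (-1.12) had a lower value without passing the test, and the chemokine CCL21 was separated upward (0.50, adjusted p = 0.41). Macrophage markers had a median of -0.03 over 10 genes. CSF1R, the growth factor receptor of macrophages, had 1.16, 1.04, 0.92 and 0.87 in unirradiated ileum and 0.36, 0.26, -0.02 and 0.42 on day 12; its change of -0.74 (SE 0.16) reached an adjusted p of 0.041 but not a 2-fold change. The complement chains C1QA (0.20) and C1QC (0.38) did not pass the test. Of 5 tested neutrophil markers, the antimicrobial peptide CAMP was separated downward (-2.67, SE 0.85, adjusted p = 0.24) and the calprotectin chains S100A8 (1.64, SE 1.17) and S100A9 (0.39) upward, with none called. The platelet list had a median of 0.01 over 5 genes and no separated member.

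Targets of p53 were among the rises. EDA2R, a death receptor of the TNF receptor family that p53 induces, had -3.69, -2.63, -2.39 and -2.53 in unirradiated ileum. On day 12 the 4 animals had -1.17, -1.18, -1.22 and -0.95, a spread of 0.12 (SD), and the rise was 1.68 (SE 0.29, 3.21-fold, adjusted p = 0.013). GDF15, a stress cytokine that acts on the brain stem to suppress appetite, had -0.27, -0.30, -0.23 and 0.08 and then 1.36 and 2.89 after 6.7 Gy and 0.97 and 0.99 after 7.4 Gy, a rise of 1.73 (SE 0.35, adjusted p = 0.029). PHLDA3, an inhibitor of AKT, was separated, and its change of 0.98 (SE 0.22, adjusted p = 0.046) lay just under the 2-fold minimum, as that of RGS3 (-1.0005) lay just past it. EDA2R and GDF15 were the 2 called genes among 22 tested p53 targets, whose median change was 0.12. Over all genes 0.0846% were called upward, 3.28% were separated upward and 3.56% downward. A further 3 targets were separated upward without passing the test, ZMAT3 (0.56), BAX (0.35) and TP53INP1 (0.37), and 3 were separated downward, PHPT1 (-0.46), PLK3 (-0.53) and TP53I3 (-0.82). CDKN1A, the p53 target that stops the cell cycle, had 4.71, 3.68, 3.94 and 3.48 and then 4.57, 4.15, 4.56 and 3.97 (change 0.36, SE 0.23, adjusted p = 0.68), and MDM2 (0.12) and FAS (0.12) also failed the test.

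The other rises came from genes of different roles. ADRA2A, the alpha 2A receptor for noradrenaline, had -5.91, -7.26, -7.20 and -6.92 in unirradiated ileum, where 1 of 4 arrays was above background, and -5.02, -4.17, -4.48 and -4.53 on day 12, where all 4 were. It rose by 2.27 (SE 0.41, adjusted p = 0.017). SLC1A1, the glutamate and aspartate transporter of the brush border, had 0.95, 0.29, 0.49 and -0.70 and then 1.27, 2.93, 2.30 and 2.18, a rise of 1.91 (SE 0.40, adjusted p = 0.033). It was the called member of the enterocyte transport list, whose median over 15 genes was -0.16 and in which the chloride exchanger SLC26A3 (0.57) was separated upward and the iron transporter SLC11A2 (-0.49) downward without a call. ANKRD65, an ankyrin repeat protein, was called (change 2.25, SE 0.50, adjusted p = 0.047), with 1 of 4 unirradiated arrays above background and unirradiated values spread between -8.28 and -5.35; the highest of these lay just below the lowest day 12 value, -5.25. After normexp background correction, which draws dim values together, the changes of ANKRD65 and ADRA2A were 0.41 and 0.61, under 2-fold, and they were called in 8 and 14 of 22 settings.

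NKAPL, a gene known from the testis, had -1.75, -2.51, -2.93 and -2.68 in unirradiated ileum and -0.39, -0.57, -0.49 and -1.34 on day 12 (change 1.77, SE 0.27, adjusted p = 0.0089). DHRS13, a dehydrogenase of the retinoid-handling family, was close to even within each group, with -0.0046, -0.23, -0.11 and -0.09 and then 1.44, 1.05, 1.19 and 1.14 (change 1.31, SE 0.22, adjusted p = 0.010). SMR3A, known as a salivary protein, had -0.30, -0.16, -0.27 and -0.88 and then 0.72, 0.46, 0.81 and 0.71 (change 1.08, SE 0.17, adjusted p = 0.0089). All 3 were above background on all 8 arrays. LOC703304, described on the array as an olfactory receptor, was called (change 3.26, SE 0.59, adjusted p = 0.017), as was LOC100430419, described as a natriuretic peptide (change 2.16, SE 0.43, adjusted p = 0.026). Both were above background on 1 of 4 unirradiated arrays, so that the size of these changes is uncertain, and over the settings tried they ranged from 1.075 to 3.82 and from 0.54 to 2.50. TDRD12, a helicase of the germ line, was above background on 0 unirradiated arrays and on the 2 arrays of 7.4 Gy, and was at least 1.17-fold higher on day 12 (adjusted p = 0.039). These last 3 probes entered the test only through day 12 groups, where they are high, so that the filter favoured a rise. Without the filter on dim probes their adjusted p were 0.026 for LOC703304, 0.038 for LOC100430419 and 0.057 for TDRD12, which was then no longer called.

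Several genes were separated upward by at least 2-fold without passing the test. NUDT1, which removes oxidized nucleotides, had 1.47, 2.38, 2.73 and 2.34 and then 3.39, 3.51, 3.16 and 2.95 (change 1.02, adjusted p = 0.070). The metallothionein MT1X had 3.31, 3.61, 4.04 and 3.17 and then 4.70, 5.08, 6.39 and 5.56 (change 1.90, SE 0.48, adjusted p = 0.089), and SCTR, the secretin receptor, had a change of 1.17 (adjusted p = 0.11). The related metallothionein MT2A was called on its dimmer probe (2.40, SE 0.50, adjusted p = 0.035) and not on its brightest (1.45, SE 0.46, adjusted p = 0.24), and metallothionein copies share sequence, so that these probes are not independent. FAU, a ribosomal protein gene, had a called rise on a dim probe (2.84, SE 0.55, adjusted p = 0.023) and -0.39 (adjusted p = 0.39) on its brightest probe, so that its probes disagree in sign. Of the 41 genes called and separated, 12 have another tested probe, which was itself called for 5 of them.

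Interferon-induced chemokines were higher on day 12 without a call. CXCL11 had -4.35, -5.06, -5.58 and -4.93 in unirradiated ileum, -3.31 and -3.25 after 6.7 Gy and -2.68 and -1.34 after 7.4 Gy (change 2.33, SE 0.65, adjusted p = 0.15). CXCL10 had -1.10, -2.07, -1.54 and -2.59 and then -0.79, -0.32, 0.17 and 1.94 (change 2.07, SE 0.64, adjusted p = 0.23). For both the second animal of 7.4 Gy was the highest. CXCL9, which attracts T cells through the same receptor, had a change of 1.71 (SE 0.82) with overlapping groups. The 21 interferon-stimulated genes tested had a median of 0.37, 15 of them higher and none called, and unirradiated replicate 1 (0.63) lay inside the day 12 range of 0.10 to 0.80. Of the antigen presentation genes TAPBP was separated upward (0.22, adjusted p = 0.58; list median 0.24 over 8 genes), and complement genes had a list median of 0.20 over 12 genes with none called. Among 18 inflammatory genes the monocyte chemokine CCL2 was separated upward (1.06, SE 0.30, adjusted p = 0.15) and the list median was 0.03.

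**Figure D3:**
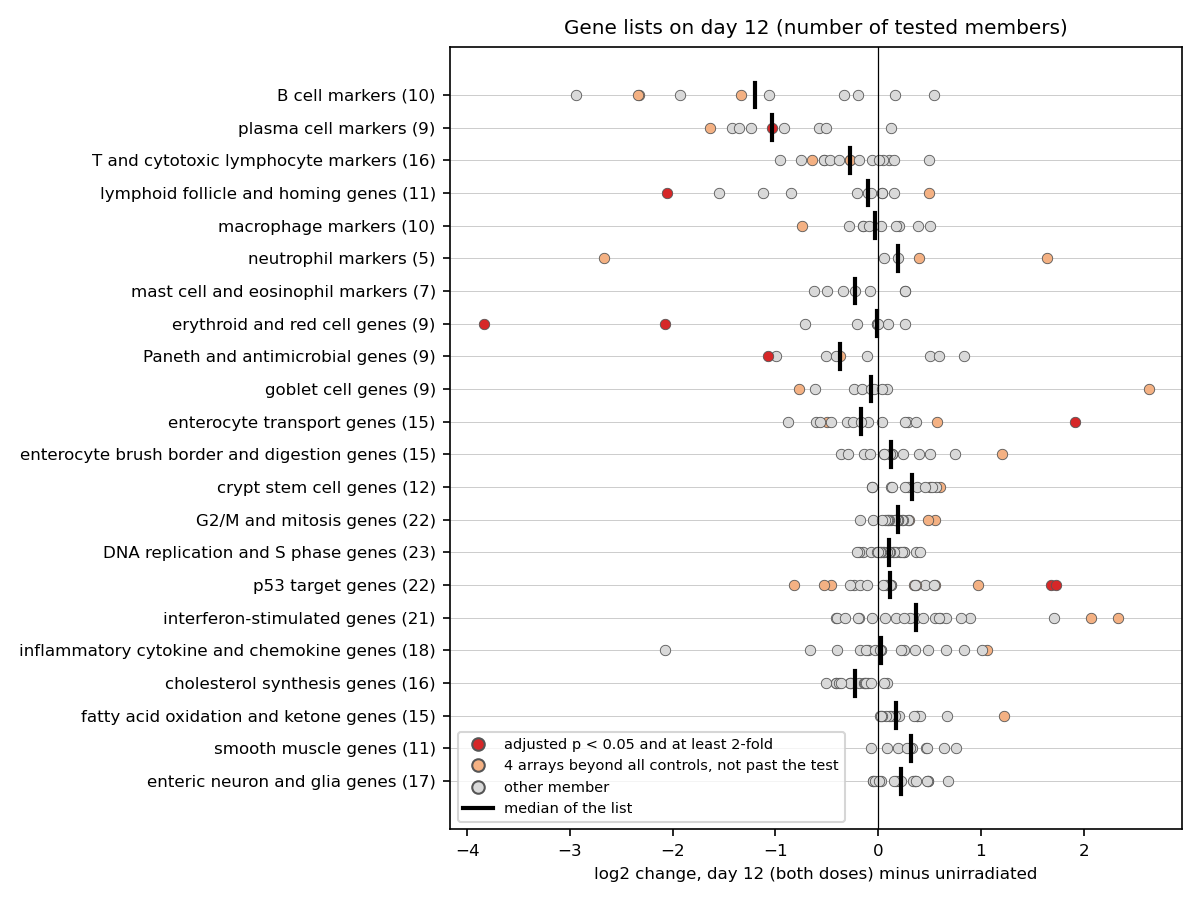
Each point is a gene, placed by its log2 change on day 12 against unirradiated ileum, and the bar is the median of its list. Called genes (red) are few; HBB and HBA lie far below the median of 9 erythroid genes and SLC1A1 far above that of 15 enterocyte transport genes, while SLAMF7 lies at the median of the plasma cell markers; B cell and plasma cell markers are the lists in the plot with medians below -1.

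Epithelial lists had medians between -0.38 and 0.33, and besides SLC1A1 and NOD2 no member was called. Crypt stem cell genes had a median of 0.33 over 12 genes, 10 of them higher. The stem cell receptor LGR5 had -3.14, -2.64, -2.75 and -2.57 and then -2.35, -2.48, -2.70 and -2.52 (change 0.27, SE 0.14, adjusted p = 0.60), with overlapping groups. The stem cell transcription factor ASCL2 was separated upward (0.60, SE 0.19, adjusted p = 0.25), as was LRIG1 (0.50). OLFM4 was above background on 1 array of each group and cannot be judged. Of 22 genes of G2/M and mitosis 20 were higher with a median of 0.19, and UBE2C (0.55, adjusted p = 0.51), PLK1 (0.49) and CDC25C (0.30) were separated; of 23 genes of DNA replication 18 were higher with a median of 0.11 and no separated member. After 6.7 Gy these lists stood at 0.05 and -0.12 and after 7.4 Gy at 0.30 and 0.28, a difference between doses that was not tested. MKI67 has no tested probe.

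Differentiated epithelium was represented by absorptive, mucous and Paneth cell genes. Lactase, LCT, had -3.36 to -3.82 in unirradiated ileum and -3.34 to -3.69 on day 12 (change 0.13, adjusted p = 0.97), and the mucin MUC2 had 4.72, 5.31, 5.37 and 5.48 and then 5.45, 4.43, 5.36 and 4.69 (change -0.24, adjusted p = 0.86). The brush border list had a median of 0.12 over 15 genes, with the carnosine dipeptidase CNDP1 separated upward (1.21, SE 0.42, adjusted p = 0.32). Goblet cell genes had a median of -0.07 over 9 genes, with the disulfide isomerase AGR2 separated downward (-0.78, adjusted p = 0.35) and the channel BEST2 upward (2.63, SE 1.07). Paneth and antimicrobial genes had a median of -0.38 over 9 genes, NOD2 being the called member and the defensin DEFA4 separated downward (-0.38); DEFA5 has no tested probe. The lipocalin LCN15 had -6.04, -5.51, -6.21 and -5.12 and then -4.39, -3.99, -5.33 and -4.38, with the groups overlapping (change 1.197, SE 0.55, adjusted p = 0.51). Enteroendocrine and tuft cell genes (median 0.22 over 13) and tight junction genes (0.16 over 17) had no separated member, and of 15 epithelial regeneration genes ANXA1 was separated downward (-0.37; median 0.02).

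Metabolic lists differed in how even their direction was. All 15 tested genes of fatty acid oxidation were higher on day 12, by 0.02 to 1.22 with a median of 0.18, and none was called. PDK4, the kinase that turns pyruvate away from oxidation, was the separated member, with -0.45, -0.38, 0.24 and -0.90 and then 0.37, 1.06, 0.46 and 1.501 (change 1.22, SE 0.37, adjusted p = 0.22). Of 16 cholesterol synthesis genes 14 were lower, by at most 0.51, with a median of -0.22 and no separated member. The fat absorption list had 11 higher and 6 lower genes and a median of 0.15, with PPARA separated upward (0.50, adjusted p = 0.41), and the bile acid list 0.27 over 14 with none. Drug-metabolizing enzymes had 13 higher and 8 lower genes and a median of 0.15, with UGT3A1, described under the doses, as the called member. The lowest of them was CYP1A1, an enzyme induced by dietary and environmental ligands, at -3.94 with a wide error (SE 1.96, adjusted p = 0.55).

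Stress and stromal lists held no called gene. DDIT3, a transcription factor of the unfolded protein response, had 0.52, 0.44, 0.73 and 0.37 and then 1.42, 1.18, 0.99 and 0.84; its change of 0.59 (SE 0.13) reached an adjusted p of 0.040 but not 2-fold (list median -0.03 over 17 genes). The clock gene PER2 was separated downward (-1.01, SE 0.28, adjusted p = 0.15) and 1 other clock gene upward (list median -0.17 over 15). Also separated downward were the immediate early gene FOSB (-1.32, adjusted p = 0.20, list median 0.01 over 19) and the chaperone HSPA8 (-0.42, adjusted p = 0.40, -0.17 over 11). So were the hexokinase HK2 (-0.29, adjusted p = 0.85, -0.03 over 14) and the endothelial PECAM1 (-0.64, adjusted p = 0.26, -0.04 over 13). Matrix metalloproteinase MMP2 was separated upward (0.46, adjusted p = 0.58; 0.19 over 15), and glucocorticoid-responsive genes, which include MT1X, had a median of 0.22 over 12. Collagens (0.13 over 22), smooth muscle genes (0.32 over 11), enteric neuron and glia genes (0.22 over 17) and adipocyte and mesothelial genes (-0.21 over 12) had no separated member. MYH11 and the macrophage receptor CD163 have no tested probe. The smooth muscle median was -0.23 without unirradiated replicate 1, so that its sign rested on that animal.

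Day 12 was also set against the earlier days in the same fit, doses pooled. Against day 4, 429 of 14192 genes were called (3.02%), and against day 7, 16 (0.113%). Of the 30 genes called and separated downward against unirradiated ileum, 6 were also lower than on day 4 by the test. Among them were FCER1A (-1.62, adjusted p = 0.014), BCL2A1 (-1.17), PRAM1 (-1.01), NOD2 (-1.02) and LOC718975 (-2.26). The 30 genes were chosen for low values on the same 4 day 12 arrays, so that these differences are no independent support. HBB and HBA were higher than on day 4, by 2.15 (adjusted p = 0.011) and 1.23 (adjusted p = 0.0085), and HBB was higher than on day 7 by 3.37 (adjusted p = 0.0077). CCR9 differed from day 4 by -0.35 and from day 7 by 0.18 (adjusted p = 0.28 and 0.76), and ITGA4 by -0.58 and 0.02 (adjusted p = 0.043 and 0.98), below the 2-fold minimum.

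Among the 11 rises, EDA2R, GDF15 and ANKRD65 were lower on day 12 than on day 4 by the test. EDA2R differed from day 4 by -1.83 (adjusted p = 0.00025) and from day 7 by -0.82 (adjusted p = 0.15), and GDF15 by -2.30 (adjusted p = 0.00018) and -0.06 (adjusted p = 0.95). PHLDA3 was likewise lower than on day 4 (-1.60, adjusted p = 6.58e-05). ANKRD65 differed from day 4 by -3.26 (adjusted p = 0.00019). In contrast 7 rises were higher on day 12 than on day 4, and 5 of them, LOC703304, LOC100430419, NKAPL, DHRS13 and SMR3A, also exceeded day 7 by the test, with 3.40, 2.02, 1.70, 1.23 and 1.098. These genes were chosen for high values on the same 4 day 12 arrays, so that the differences from earlier days are no independent support. For ADRA2A the difference passed the test against neither day (0.85 and 0.54).

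Replicates 3 and 4 of day 7 after 7.4 Gy lay at position 4 of their slides, as the day 12 arrays did. There DHRS13 had 0.10 and -0.23, SMR3A -0.10 and -0.64, and NKAPL -2.40 and -2.64, all below the lowest day 12 value. LOC703304 had -6.95 and -6.97, also below, while LOC100430419 had -6.52 and -6.19, the latter above its lowest day 12 value of -6.29. EDA2R had -0.01 and 0.18 on the same arrays and CCR9 -3.51 and -3.05. The rises had been chosen for high day 12 values, and what position contributed was not tested. Within slides 3 and 4, the 6.7-Gy day 12 array differed from the unirradiated array by -1.41 and -2.68 for CCR9, by 1.22 and 1.36 for EDA2R and by 1.55 and 1.14 for DHRS13. The sign of such differences follows from the choice of separated genes. Their size was selected as well, since these arrays entered the call, so that they are no independent support.

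**Figure D4:**
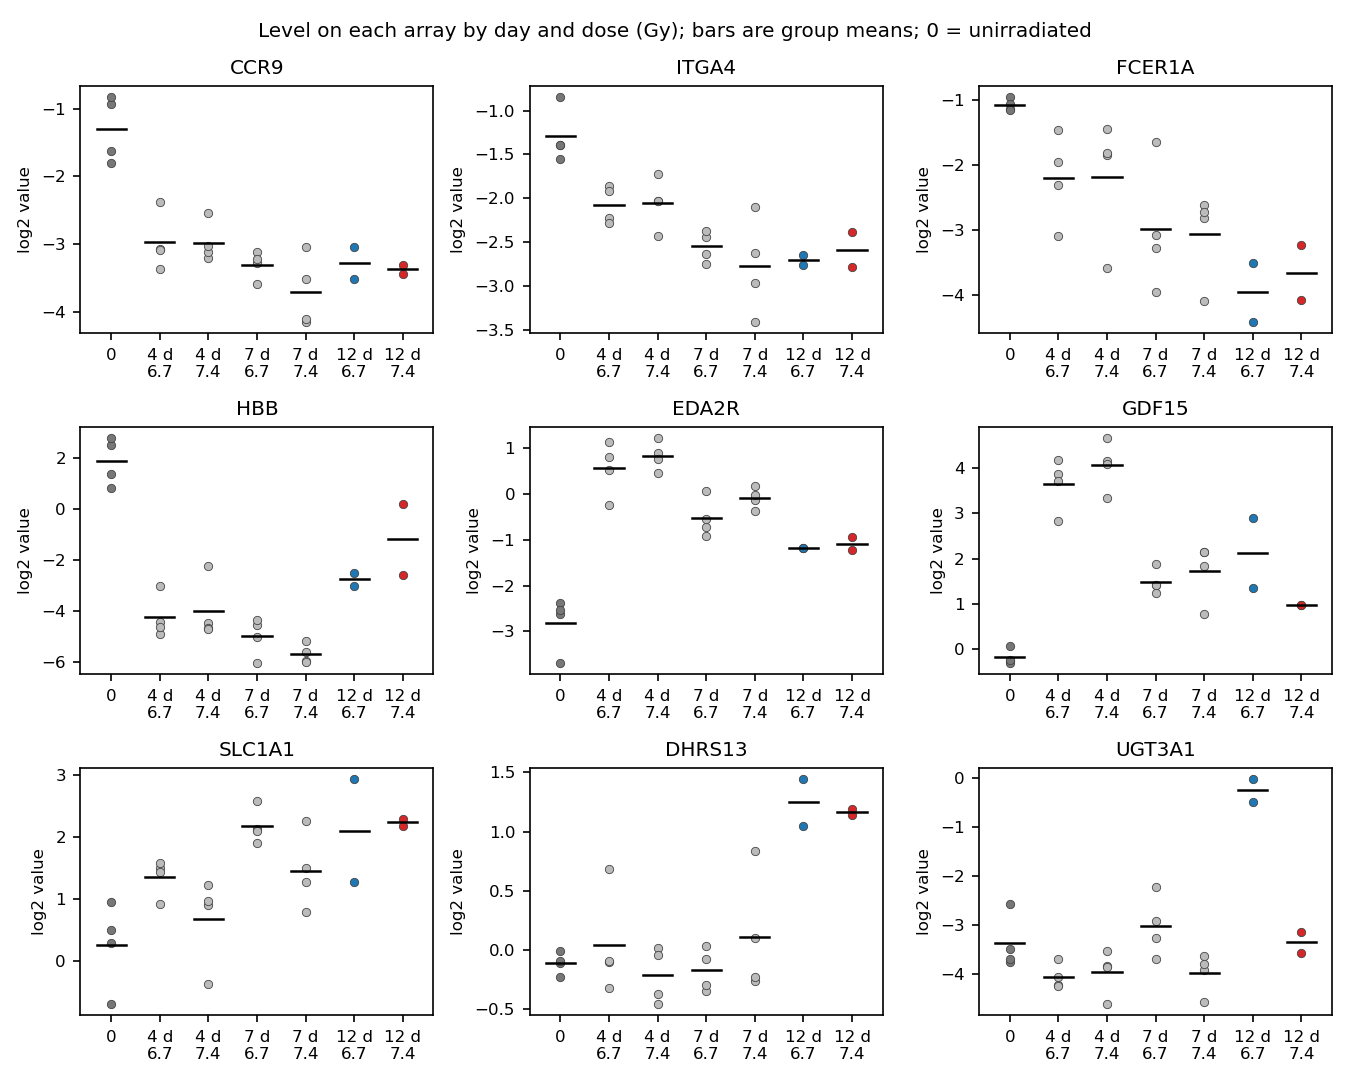
Each panel plots the log2 value of a gene on every array (points) with group means (bars) for unirradiated ileum (0) and for each dose at the 3 later times. CCR9 and ITGA4 lie low at all 3 times, HBB is higher on day 12 than on day 7, EDA2R and GDF15 are lower on day 12 than on day 4, DHRS13 is higher on all 4 day 12 arrays than on any other array, and UGT3A1 is high on the 2 arrays of 6.7 Gy on day 12.

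The doses differed for a single probe on day 12. Between 7.4 and 6.7 Gy 1 of 36108 probes was called (0.00277%), and 559 passed an unadjusted p under 0.05 with 2-fold. It belongs to UGT3A1, an enzyme that conjugates N-acetylglucosamine to bile acids and other lipids. The gene had -3.76, -3.69, -2.57 and -3.48 in unirradiated ileum, -0.48 and -0.02 after 6.7 Gy, and -3.13 and -3.57 after 7.4 Gy. Its difference of 7.4 minus 6.7 Gy was -3.10 (adjusted p = 0.026), and after 7.4 Gy it lay within the unirradiated range, so that its pooled call (change 1.57, adjusted p = 0.026) rested on the lower dose. Its other probe, above background on 1 unirradiated array, gave a pooled change of 1.72 (adjusted p = 0.18). For the 41 genes that were called and separated, the dose difference passed the test for 0. The intervals behind that count are wide, since each dose has 2 animals. SLAMF6 (2.08, SE 0.73), TDRD12 (2.47, SE 0.62) and LOC100430419 (-1.98, SE 0.60) had differences between doses of about 2 log2 units or more in size that did not pass it. Tested alone against unirradiated ileum, 6.7 Gy gave 39 called probes and 7.4 Gy 16, and both comparisons share the unirradiated animals.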

How the data were processed

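Total RNA of 24 rhesus ileum samples was hybridized to Agilent single-color arrays, and the scanner files were made with Feature Extraction 11.0.1.1. Per the file headers, the deposited intensity of each spot is the processed signal after background subtraction. The authors also deposited a table of log2 values normalized to the 75th percentile and centred for each probe, which, once both were centred, differed from the values used here by at most 0.0013. Control spots were dropped here. A spot marked as an outlier was dropped unless it was the last of its probe. Replicate spots were averaged, and log2 intensity minus the 75th percentile of its array was used. Of 43603 probes, the 36108 well above background on all arrays of at least 1 group were tested. Gene symbols came from the files, by RefSeq accession for 8074 probes, and 2936 were updated by gene ID. No sequences or coordinates are given.

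The 7 groups were fitted together with limma 3.58.1 in R 4.3.3 (17 residual degrees of freedom) and p-values were adjusted by the Benjamini-Hochberg method over all probes. Genes are named if they were among the 15 largest rises or falls called and separated, called members of a list, called between doses, the separated member with the smallest p of a list without a called one, or on a short list reported whatever its values. P2RY10, ITGA4, CARD9, IKZF3, PIK3R6, BTK, KLHL6, S100A4, UNC13D, MSN, RGS6, TBC1D10C, RGS3, MT2A, FAU, PHLDA3, VPREB3 and other list members were named after their values were seen. Members, lists and tests were chosen with earlier results of these data known. The fit was tested on simulated data. Alternatives were other normalizations and filters, normexp on median signals, other tests, slide, scan day and replicate blocks, and leaving out each array. The number of arrays limits the precision. Some genes that the naming rule covers are not reported here.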

Additional observations from a re-analysis of the deposited data

Results flagged for a closer look

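Of 252 groups of 4 values looked at, 14 held an animal whose gap to the nearest other, divided by the range of the group, exceeded the critical value of Dixon's test, and chance alone flags about 1 in 20 groups (12.6). On day 12 the second animal of 7.4 Gy stood above the others for HBB (0.838), HBA (0.848) and PHLDA3 (0.966) and below them for TBC1D10C (0.832). The first animal of 6.7 Gy was the lowest for CNDP1 (0.958), and the second was the highest for the median of the heat shock genes (0.833). Unirradiated replicate 4 was the highest for AGR2 (0.888), PECAM1 (0.898) and BTK (0.834) and the lowest for THRSP (0.901). Unirradiated replicate 1 was the lowest for the medians of goblet cell genes (0.875), enteroendocrine and tuft cell genes (0.934), collagens and matrix genes (0.87) and smooth muscle genes (0.928).

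UGT3A1 differed between the doses on day 12 by -3.105 (7.4 minus 6.7 Gy, limma, adjusted p = 0.026). Dose cannot be told apart from slide and scan day there.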

How the results depend on the processing

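The number of calls did not hold, and the direction of the called genes is no sign of stability, since separated genes were chosen. Against 88 called probes (27 higher, 61 lower), normexp called 39 (20 lower), with 20 of the 43 genes still called, a fit of only the 8 arrays 27 (10 and 17), with 8 of the 43, a slide block 34 (10 and 24), and a scan day block, added after seeing the data, 23 (7 and 16). Quantile normalization called 116 (33 and 83), and the slide as a random block 108 (29 and 79). Without a minimum fold 189 were called (44 and 145). The methods' t-test called 377 (117 and 260) unadjusted and 0 (0 and 0) after adjustment. With the replicate block 45 were called (14 and 31); the replicate numbers did not pair the arrays (correlations of deviations -0.0432 to 0.117). Leaving out 1 array gave 0 to 87 calls (0 to 24 higher, 0 to 68 lower), and 1546 to 2910 probes separated higher and 1505 to 1917 lower. Without the first 7.4-Gy array, 42 of the 43 genes still had an unadjusted p under 0.05 with 2-fold.

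For the doses, the single call became 8 after quantile normalization, 2 after normexp and 0 with a slide or scan day block (572 and 471 at an unadjusted p under 0.05 with 2-fold by limma), and 1 to 39 when an array was left out, 39 without the first 7.4-Gy array. Uncalled values near 0 changed sign: LCT was -0.010 with the replicate block, FAU 1.23 as the mean of its probes, OLFM4 -0.28 to 0.54, FABP6 -0.043 to 0.16 and MUC2 -0.50 to 0.019 when an array was left out. Group sizes of 2 and 4 limit what could be called.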
